A study of Mus musculus with 4 samples.

Results

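The mitosis genes described here are 40 genes whose products act from the entry into mitosis to the separation of the daughter cells, out of 32285 genes listed in the count tables. They were chosen by name, and 39 of the 40 reached a level of 3 CPM (UMIs of the gene per 1000000 UMIs of the same cells) in the mean over the 4 libraries of alveolar macrophages, while Ttk did not. The kinase Cdk1, bound to a B-type cyclin, drives a cell into mitosis. The kinetochore then ties chromosomes to the spindle, the spindle checkpoint holds the cell until all are attached, and the anaphase-promoting complex destroys cyclin B and securin to let the chromosomes part. Alveolar macrophages of the adult lung are known to keep up their number in large part by dividing in place, and most of these genes are known to be transcribed mainly from S phase to mitosis.

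Lung cells of female mice were dissociated with collagenase, sorted, and profiled with a droplet 3′ assay in 4 libraries, 1 per group. The groups were MMTV-HER2 early and wildtype early, both at 16 weeks of age, and MMTV-HER2 late and wildtype late, both at 32 weeks, an age at which the labels speak of palpable tumours. In MMTV-HER2 animals a mammary tumour virus promoter drives HER2, an oncogene, and is active mainly in mammary epithelium, and the count tables of the wildtype animals are named FVB. The number of mice in a library and the antibodies of the sort are not given in the sources used here.

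Between 5126 and 6554 cells per library were kept. AM cells (alveolar macrophages, by the summed UMIs of Chil3, Ear1, Ear2, Fabp1, Lpl and Plet1) numbered 4413 in MMTV-HER2 early, 4833 in wildtype early, 5702 in MMTV-HER2 late and 4245 in wildtype late, with 18226829, 22860512, 27573921 and 21563827 UMIs in that order. IM cells (interstitial macrophages, by C1qa, C1qb and C1qc) numbered 455, 330, 661 and 633, and other cells 258, 286, 191 and 251. All 6 AM markers were found in AM cells of every library, at 16176 to 19271 CPM in sum, against 462 to 801 CPM in IM cells. Libraries shared 1 to 13 cell barcodes per pair. The library of wildtype early stood apart by markers of T cells. The 7 T-lineage markers (Cd3d, Cd3e, Cd3g, Lck, Trac, Trbc1, Trbc2) summed to 42.3 CPM in AM cells of wildtype early, against 2.69 to 3.66 CPM in the other 3 libraries, and to 2080 CPM in IM cells of wildtype early, against 58.7 to 226 CPM. With 1 library per group no difference has a replicate check, and all intervals are 95% intervals that cover counting error only.

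Promoters of cell cycle genes often hold a CHR element, with the core TTTGAA, and CCAAT boxes, which are known to bind the MuvB complexes and NF-Y. RefSeq promoters (GRCm38.p6) were matched by symbol for 33 of the 40 members. TTTGAA, on either strand, was present in the 250 bases before the start of 10 of these 33 (30.3%), against 16.3% of all 27025 promoters of that length. CCAAT, on either strand, was present in 26 of 33 (78.8%), against 34.5% of all promoters, and both motifs in 9 of 33 (27.3%), against 5.73%. The 120 bases before the start are shown for the 4 members picked by the rule for named genes, given at the end, whose TTTGAA lies in them. Capitals mark TTTGAA or its complement TTCAAA and CCAAT or its complement ATTGG, and each line runs 5′ to 3′ toward the gene.
Top2a, chr11:99024190-99024309, minus strand: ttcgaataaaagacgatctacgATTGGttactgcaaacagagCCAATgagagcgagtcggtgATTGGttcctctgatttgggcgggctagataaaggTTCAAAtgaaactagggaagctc
Ube2c, chr2:164769809-164769928, plus strand: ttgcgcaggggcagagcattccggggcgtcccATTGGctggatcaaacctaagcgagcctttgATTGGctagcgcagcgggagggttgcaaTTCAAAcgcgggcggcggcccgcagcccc
Prc1, chr7:80294356-80294475, plus strand: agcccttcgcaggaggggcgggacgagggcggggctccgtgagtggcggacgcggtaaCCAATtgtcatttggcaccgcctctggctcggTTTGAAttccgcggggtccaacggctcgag
Cdk1, chr10:69352913-69353032, minus strand: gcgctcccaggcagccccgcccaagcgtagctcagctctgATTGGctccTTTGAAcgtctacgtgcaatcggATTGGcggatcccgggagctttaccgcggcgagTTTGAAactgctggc
Prc1 has a second annotated start, and the sequence shown is that of the start further along the gene. The counts above used its other start, whose 250 bases lack TTTGAA, so Prc1 is not among the 10. Smc2, the other member picked by that rule with TTTGAA, holds it more than 120 bases before its start. Cdc20, Mki67, Ckap2l, Kif11 and Kif2c, which the rule did not pick, also hold TTTGAA within 120 bases and are not shown. A match is a string of letters in this window and does not show that a factor binds there.

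In AM cells the 40 genes summed to 646 CPM (95% interval 635 to 658) in MMTV-HER2 early and 892 CPM (880 to 904) in wildtype early. They summed to 623 CPM (614 to 633) in MMTV-HER2 late and 623 CPM (612 to 634) in wildtype late. Wildtype early thus stood above the other 3 libraries, which lay close together. By gene, 38 of the 40 were highest in wildtype early, and the other 2 in wildtype late. The lowest library varied more: 20 members were lowest in MMTV-HER2 early, 11 in MMTV-HER2 late and 9 in wildtype late.

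**Figure D1:**
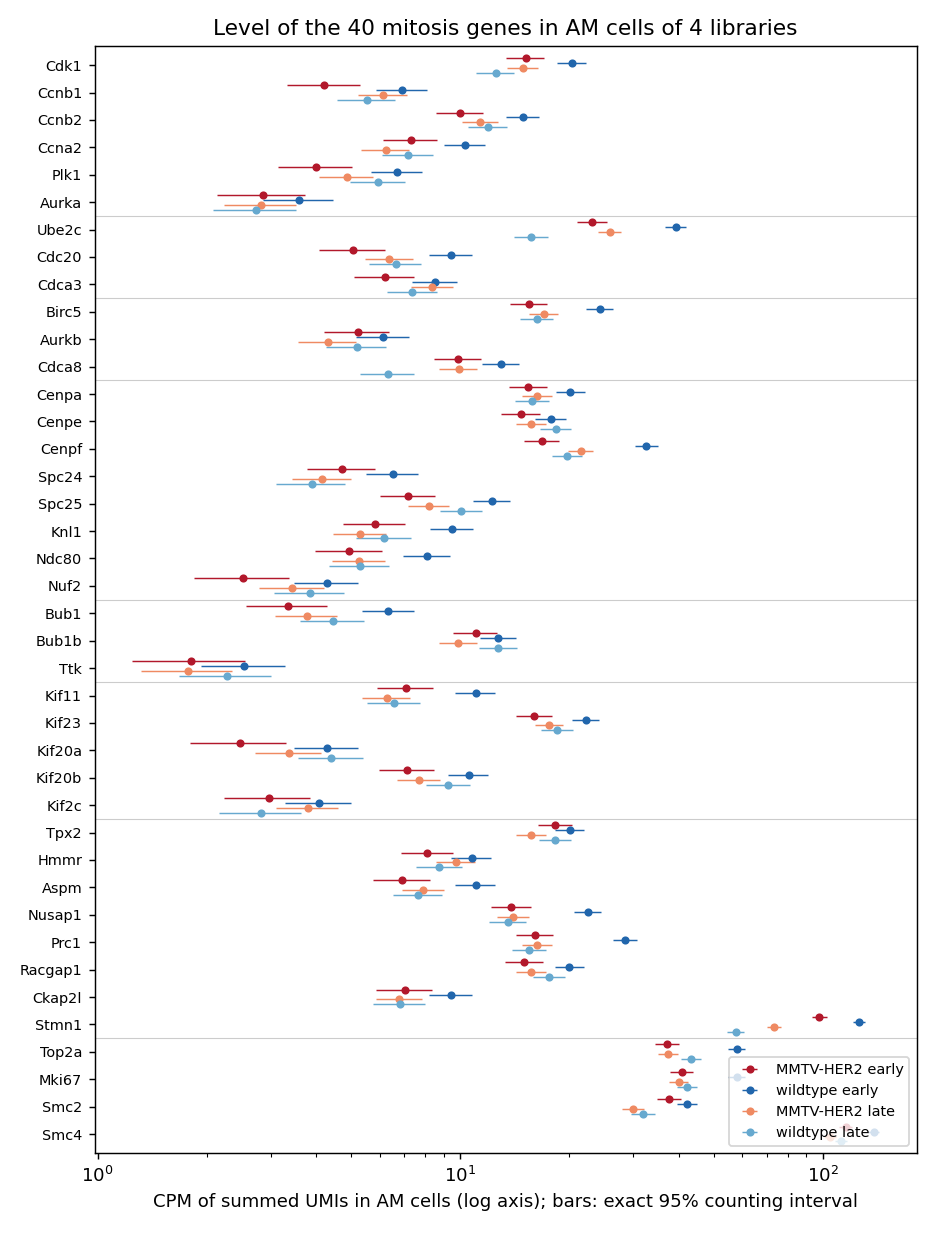
Level of each mitosis gene in AM cells in CPM (log axis), with 1 point per library and its exact 95% counting interval, grouped by role from the kinases at the top to chromosome structure at the bottom. The points of wildtype early lie to the right of those of MMTV-HER2 early in all 40 rows, and Smc4 and Stmn1 have the highest levels.

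The early comparison asks whether mitosis genes differ in alveolar macrophages of MMTV-HER2 mice at 16 weeks. All 40 members were lower in MMTV-HER2 early than in wildtype early, by log2 -0.13 to -0.96, and the interval lay below 0 for 34 of them. Of the 39 members at 3 CPM or more, 33 were at least 20% lower and 0 at least 25% higher (the same step on the log2 scale, used for all counts of members below), against a background of 4.08% lower and 1.97% higher among all 9455 genes at that level. Their median log2 fold was -0.50, against -0.03 over all genes. The sum was 1.38-fold lower (log2 -0.46, interval -0.50 to -0.43). Without the AM cells that held 3 or more T-lineage UMIs, of which wildtype early had 34 and the other libraries 2 to 6, the sum was at log2 -0.41, with 31 members lower and 0 higher, and the interval lay below 0 for 31 of the 40. Cenpe, Spc24 and Smc2 were the members whose intervals newly spanned 0. Those of Aurka, Aurkb, Bub1b, Ttk, Kif2c and Tpx2 did so with and without these cells. Those 34 cells held 926 of the 20389 member UMIs of wildtype early AM cells. Without any AM cell with a T-lineage UMI it was at -0.35, with 26 lower, and the part of T-lineage RNA too scarce to give a UMI was not tested.

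**Figure D2:**
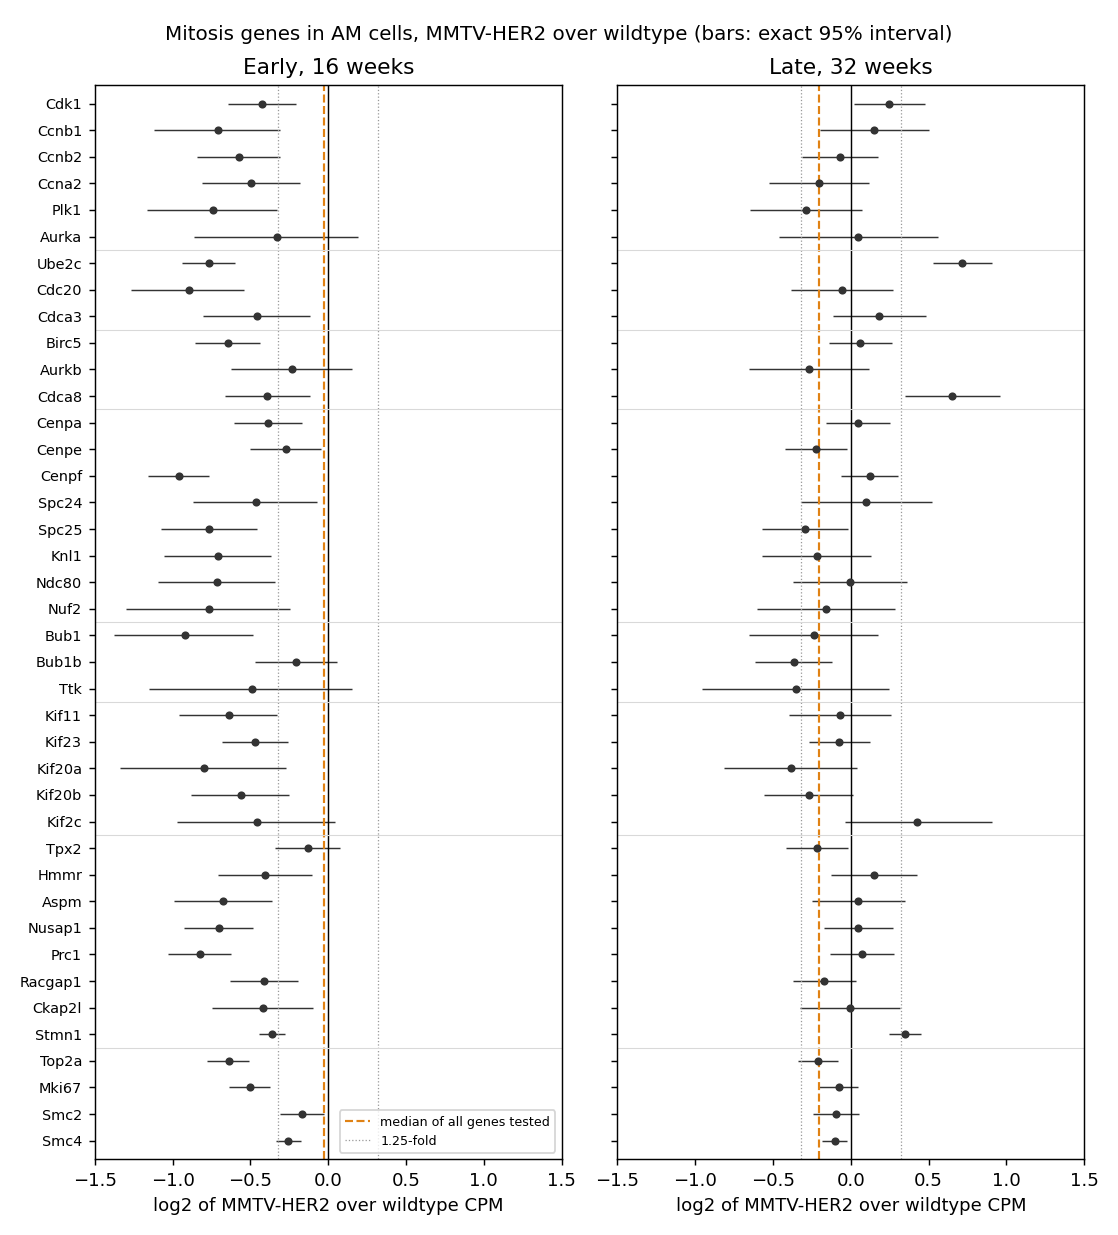
log2 ratio of CPM in MMTV-HER2 over wildtype AM cells for each mitosis gene, early (left) and late (right), with exact 95% counting intervals; the dashed line is the median of all genes tested and dotted lines mark the step of 25% higher and 20% lower. All 40 points lie below 0 at 16 weeks, while at 32 weeks 24 lie below 0 and Ube2c and Cdca8 stand furthest to the right.

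The kinases and cyclins of mitotic entry were all at least 20% lower early, 6 of 6, with a median log2 of -0.53. Cdk1, the kinase that starts mitosis (ENSMUSG00000019942, chr10:69335146-69352938, minus strand), stood at 15.1 CPM in MMTV-HER2 early and 20.3 CPM in wildtype early, and at 14.9 CPM in MMTV-HER2 late and 12.5 CPM in wildtype late. It was lower early (log2 -0.42, interval -0.64 to -0.20) and the late ratio was on the other side of 0 (0.25, 0.02 to 0.47). Ccnb1, which encodes cyclin B1, stood at 4.22 CPM in MMTV-HER2 early and 6.91 CPM in wildtype early, and at 6.13 CPM in MMTV-HER2 late and 5.52 CPM in wildtype late. Its early log2 fold was -0.71 (-1.12 to -0.31), while late the interval spanned 0. Ccnb1 has pseudogenes with near-identical 3′ ends, so its count is uncertain. Plk1, a kinase of centrosome maturation and cytokinesis, had an early log2 fold of -0.74, Ccnb2 (cyclin B2) -0.57, Ccna2 (cyclin A2) -0.49 and the centrosomal kinase Aurka -0.33 with an interval that spanned 0.

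The genes of the anaphase-promoting complex and of mitotic exit were 3 of 3 lower early. Ube2c, the ubiquitin-conjugating enzyme of that complex (ENSMUSG00000001403, chr2:164769898-164778822, plus strand), had 23.1 CPM in MMTV-HER2 early and 39.3 CPM in wildtype early. It had 25.9 CPM in MMTV-HER2 late and 15.7 CPM in wildtype late. Ube2c was thus lower early (log2 -0.77, -0.94 to -0.60) and higher late (0.72, 0.53 to 0.91), and wildtype late had the lowest level of the 4 libraries. Cdc20, the activator of the complex, had 5.05 CPM in MMTV-HER2 early and 9.40 CPM in wildtype early (log2 -0.90), while late it had 6.38 CPM in MMTV-HER2 and 6.63 CPM in wildtype. Cdca3, known as a trigger of mitotic entry, had 6.20 CPM in MMTV-HER2 early, 8.53 CPM in wildtype early, 8.38 CPM in MMTV-HER2 late and 7.37 CPM in wildtype late, so that MMTV-HER2 early lay below the other 3 libraries.

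The chromosomal passenger complex, which corrects the attachment of chromosomes and guides cytokinesis, had 2 members that were at least 20% lower early and 1 that was not. Birc5, or survivin (ENSMUSG00000017716, chr11:117849251-117855743, plus strand), had 15.5 CPM in MMTV-HER2 early and 24.2 CPM in wildtype early (log2 -0.65, -0.86 to -0.44). Late it had 17.0 CPM in MMTV-HER2 and 16.3 CPM in wildtype. Cdca8, or borealin, had 9.88 CPM in MMTV-HER2 early and 12.9 CPM in wildtype early, but 9.90 CPM in MMTV-HER2 late and 6.31 CPM in wildtype late. Cdca8 was lower early (log2 -0.39) and higher late (0.65, 0.35 to 0.96), as Ube2c was. The kinase of the complex, Aurkb, had intervals that spanned 0 in all 4 comparisons.

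Of the 8 kinetochore and centromere genes 7 were at least 20% lower early, and their median of -0.71 was lower than that of all other roles except the 3 genes of the anaphase-promoting complex. Cenpf (ENSMUSG00000026605, chr1:189640606-189688086, minus strand), which joins the kinetochore from G2 on, had 16.8 CPM in MMTV-HER2 early and 32.6 CPM in wildtype early, with the lowest early fold of all members (log2 -0.96, -1.16 to -0.76). Late it had 21.5 CPM in MMTV-HER2 and 19.8 CPM in wildtype. Cenpe, a kinesin of the kinetochore, differed less, at 14.7 CPM in MMTV-HER2 early and 17.8 CPM in wildtype early, and at 15.7 CPM in MMTV-HER2 late and 18.3 CPM in wildtype late. Its log2 folds were -0.27 early and -0.23 late, both with intervals below 0, but without AM cells of 3 or more T-lineage UMIs the early fold was -0.19 with an interval of -0.42 to 0.04. The outer kinetochore genes Spc25, Nuf2, Ndc80, Knl1 and Spc24 lay between log2 -0.76 and -0.47 early, and the centromeric histone Cenpa at -0.38.

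The spindle checkpoint kinases Bub1, Bub1b and Ttk lay below 0 both early and late, and the late median of all genes was itself at -0.20. Without AM cells of 3 or more T-lineage UMIs, the late intervals of Bub1 (-0.65 to 0.18) and Ttk (-0.96 to 0.25) spanned 0. Bub1b, or BubR1 (ENSMUSG00000040084, chr2:118598211-118641591, plus strand), had 11.03 CPM in MMTV-HER2 early and 12.7 CPM in wildtype early, and 9.86 CPM in MMTV-HER2 late and 12.7 CPM in wildtype late. Its early interval spanned 0 (log2 -0.21, -0.47 to 0.06) and its late one did not (-0.37, -0.61 to -0.12). Bub1 stood apart from Bub1b early, with 3.35 CPM in MMTV-HER2 early and 6.34 CPM in wildtype early (log2 -0.92).

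All 5 mitotic kinesins were at least 20% lower early, with log2 folds from -0.80 for Kif20a to -0.46 for Kif2c. Kif23, a motor of the central spindle (ENSMUSG00000032254, chr9:61915905-61946774, minus strand), had 16.0 CPM in MMTV-HER2 early, 22.2 CPM in wildtype early, 17.6 CPM in MMTV-HER2 late and 18.5 CPM in wildtype late. Its early log2 fold was -0.47 (-0.68 to -0.26), and its late one -0.07 with an interval across 0.

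Among the 8 spindle and midzone genes 7 were at least 20% lower early. Prc1, which bundles microtubules in the midzone, had 16.1 CPM in MMTV-HER2 early and 28.5 CPM in wildtype early (log2 -0.83, -1.03 to -0.63), against 16.3 CPM in MMTV-HER2 late and 15.5 CPM in wildtype late. Stmn1 (ENSMUSG00000028832, chr4:134468320-134473843, plus strand), or stathmin, a protein that destabilises microtubules and is not limited to mitosis, had 97.8 CPM in MMTV-HER2 early and 126 CPM in wildtype early, and 73.2 CPM in MMTV-HER2 late and 57.5 CPM in wildtype late. Stmn1 was lower early (log2 -0.36, -0.45 to -0.28), higher late (0.35, 0.25 to 0.45), and lower at 32 than at 16 weeks in both genotypes. Tpx2, a spindle assembly factor, had the smallest early difference of all members (log2 -0.13), with an interval that spanned 0. Near-identical 3′ ends also make the counts of Stmn1, Prc1, Ube2c, Cenpf, Spc24 and Ndc80 uncertain.

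The 4 genes of chromosome structure had the highest levels beside Stmn1. Smc4, a subunit of condensin (ENSMUSG00000034349, chr3:69004738-69034623, plus strand), had 116 CPM in MMTV-HER2 early, 138 CPM in wildtype early, 105 CPM in MMTV-HER2 late and 112 CPM in wildtype late. Its partner Smc2 had 37.6 CPM in MMTV-HER2 early, 42.2 CPM in wildtype early, 30.0 CPM in MMTV-HER2 late and 32.0 CPM in wildtype late. Both condensin subunits moved little, with early log2 folds of -0.26 for Smc4 and -0.17 for Smc2, the last of these with an interval that spanned 0 without AM cells of 3 or more T-lineage UMIs. Top2a, which untangles sister chromatids, had 37.1 CPM in MMTV-HER2 early and 57.9 CPM in wildtype early (log2 -0.64, -0.78 to -0.51), and 37.4 CPM in MMTV-HER2 late and 43.3 CPM in wildtype late (-0.21, -0.34 to -0.08). Mki67, the proliferation marker Ki-67, had an early log2 fold of -0.50 and a late one of -0.08.

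At 32 weeks the summed genes stood at the same level in both genotypes (log2 0.00, -0.03 to 0.03). Of 39 members 4 were at least 25% higher, namely Ube2c, Cdca8, Stmn1 and Kif2c, and 2 were lower, namely Bub1b and Kif20a, against a background of 5.21% higher and 29.7% lower among all genes. The intervals of Kif2c and Kif20a spanned 0. Over all 40 members the interval lay above 0 for 4 and below 0 for 6. The median of all genes was itself at -0.20 in this comparison and that of the members at -0.07. The shift of all genes went with transcript length: its median was -0.01 for transcripts under 2000 bases and -0.29 for those of 4000 bases or more, and the same medians were 0.05 for 10 members and -0.10 for 12. Relative to the median of all genes, 9 members were higher and 0 lower. With every cell weighing the same, 3 were higher and 8 lower. The part of transcript length in the late values was not tested.

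Late against early in wildtype animals, the sum was 1.43-fold lower at 32 weeks (log2 -0.52, -0.55 to -0.49). Of 39 members 24 were at least 20% lower and 0 higher, against a background of 8.49% lower and 28.0% higher. This background too went with transcript length. Its median log2 was -0.03 for transcripts under 2000 bases and 0.23 for those of 4000 bases or more. The same medians were -0.37 for 10 members and -0.44 for 12, and the part of length was not tested. Ube2c (log2 -1.32), Stmn1 (-1.13) and Cdca8 (-1.04) led, and the chromosome structure genes lay between -0.45 and -0.30. This fold depended on the limit for AM cells: with AM markers at 1% or more of a cell's UMIs in place of 0.4%, the sum was at log2 -0.15. With every cell weighing the same it was at -0.31, with 12 members lower and 2 higher. AM cells with 10 or more member UMIs held a lower share of AM marker UMIs, at a median of 1.15 to 1.52% over the libraries, than cells with under 3, at 1.53 to 1.89%. Wildtype early and its T-lineage markers enter this comparison and the early one alike, so they are not independent. In MMTV-HER2 animals the sum was at log2 -0.05 (-0.09 to -0.02) late against early, with 7 members at least 25% higher, against a background of 4.59%, and 2 lower, against 3.61%. With free RNA subtracted, at 13.9% of AM UMIs in MMTV-HER2 late and 3.06% in MMTV-HER2 early, 3 members were higher and 3 lower. Cenpf (log2 0.36), Ccnb1 (0.54) and Cdca3 (0.43) had intervals above 0, and Stmn1 (-0.42), Smc2 (-0.33), Tpx2 (-0.22) and Smc4 (-0.14) had intervals below 0. With AM markers at 1% or more this sum was at 0.16.

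Other genes of the division cycle, in lists that hold no member, had medians nearer to 0 early. Of 46 mitosis partners at 3 CPM or more in the mean, such as condensin and kinetochore subunits outside the 40, 21 were at least 20% lower early and 0 higher, with a median log2 of -0.29. The condensin subunit Ncapg had 3.62 CPM in MMTV-HER2 early and 6.65 CPM in wildtype early (log2 -0.88, -1.32 to -0.45), and Ncapd2 had 5.98 and 9.19 CPM in that order. Of 33 DNA replication genes 5 were lower early and 0 higher, with a median of -0.14. Of 31 cycle regulators 3 were lower and 1 higher, and Ccnd2, or cyclin D2, which acts in G1, had 308 CPM in MMTV-HER2 early and 281 CPM in wildtype early (log2 0.13). Cdkn2d, which encodes the CDK inhibitor p19, was lower in MMTV-HER2 early, at 4.66 CPM against 8.09 CPM in wildtype early. Late, 7 of the 46 partners and 8 of the 33 replication genes were lower and 0 of either higher, both smaller shares than the 29.7% of all genes that were lower. Of the 31 regulators 7 were lower late and 3 higher, with a median log2 of -0.18, against -0.20 over all genes. The late interval of Ccnd2 lay below 0. Among the regulators that were higher, Cdkn1a, the CDK inhibitor p21, had 107 CPM in MMTV-HER2 late and 85.3 CPM in wildtype late (log2 0.33).

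Member UMIs were concentrated in few cells. AM cells with 10 or more of them were 3.29% of AM cells in MMTV-HER2 early, 4.59% in wildtype early, 3.44% in MMTV-HER2 late and 3.44% in wildtype late, and held 67.5, 74.6, 68.5 and 67.5% of the member UMIs in that order. In cells with under 3 member UMIs the list summed to 153 CPM in MMTV-HER2 early and 152 CPM in wildtype early, and to 138 CPM in MMTV-HER2 late and 136 CPM in wildtype late. These cells were chosen by the member UMIs themselves, so the values are a description.

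After thinning every cell to 2000 UMIs, 5.10% of AM cells (interval 4.43 to 5.83) held 3 or more member UMIs in MMTV-HER2 early and 6.81% (6.09 to 7.59) in wildtype early. The share was 4.85% (4.29 to 5.46) in MMTV-HER2 late and 4.98% (4.33 to 5.70) in wildtype late. Unthinned, the shares were 11.96, 17.6, 13.5 and 15.5% in that order. For 10 or more UMIs the thinned shares were 2.70% (2.22 to 3.26) in MMTV-HER2 early, 3.42% (2.91 to 3.99) in wildtype early, 2.26% in MMTV-HER2 late and 2.28% in wildtype late. The early intervals did not overlap at 3 or more UMIs and did at 10 or more, and the late ones overlapped at both. Cells with under 2000 UMIs, 490 in MMTV-HER2 early, 357 in wildtype early, 340 in MMTV-HER2 late and 171 in wildtype late, were left out. Between 200 and 305 cells per library passed the limit of 3, of which 45 to 80 lay exactly at it, and 223 to 296 cells lay just under it at 2. A share of 3 or more is not in itself a mark of division. Among endothelial cells, chosen by Pecam1, Cldn5, Cdh5 and Epas1, 13.6 to 20.9% of 43 to 75 thinned cells per library passed it. The mean share of these cells over all possible draws of thinning was 12.4 to 13.6%. Stmn1 gave 67.6% of the member UMIs of endothelial cells.

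**Figure D3:**
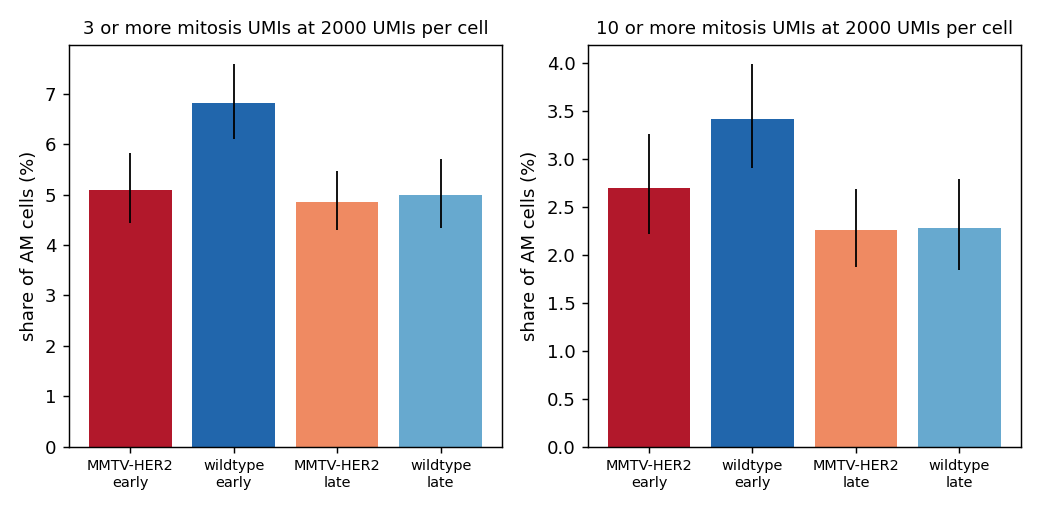
Share of AM cells (%) with 3 or more (left) and 10 or more (right) mitosis gene UMIs after thinning each cell to 2000 UMIs, 1 bar per library, with exact 95% binomial intervals and both axes starting at 0. Wildtype early is highest in both panels, at 6.81% and 3.42%, and the intervals of MMTV-HER2 late and wildtype late overlap in both.

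AM cells in division could also be picked without any member, by the partner and replication lists. Cells with 15 or more UMIs of both lists together were taken, and those with at least 2 partner UMIs per replication UMI were called mitosis-side cells and the reverse replication-side cells. The list summed to 13473 CPM in mitosis-side cells of MMTV-HER2 early and 13117 CPM in those of wildtype early, and to 10550 CPM in those of MMTV-HER2 late and 12446 CPM in those of wildtype late. In replication-side cells it summed to 979 to 1720 CPM. In this choice of cells the level within mitosis-side cells was close between the early genotypes. Their share was 0.93% of AM cells (0.67 to 1.26) in MMTV-HER2 early and 1.55% (1.22 to 1.94) in wildtype early. After thinning to 2000 UMIs, with 6 or more UMIs of the lists, the shares were 1.38% (1.04 to 1.79) in MMTV-HER2 early and 1.72% (1.36 to 2.14) in wildtype early, and 1.59% in MMTV-HER2 late and 1.67% in wildtype late, with intervals that overlapped within each age. In mitosis-side cells chosen after thinning, the list summed to 12225 CPM (11837 to 12623) in MMTV-HER2 early and 13016 CPM (12721 to 13316) in wildtype early. Late it summed to 11809 CPM in MMTV-HER2 and 10617 CPM in wildtype. The order of the genotypes at each age was thus the reverse of that without thinning. Chosen without thinning, mitosis-side cells of wildtype early held 340 CPM of T-lineage UMIs and those of the other 3 libraries 0.

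All 40 members were higher on the mitosis side than on the replication side, by log2 6.65 for Ccnb2 to 1.21 for Smc2. Ube2c (6.63), Cenpf (5.96), Aspm (5.80), a spindle pole protein, and Hmmr (5.60), a spindle assembly factor, followed Ccnb2. Stmn1 (1.31), Smc4 (1.71), Spc24 (1.80) and Aurkb (2.05) stood next to Smc2. The share of a member's UMIs that fell in cells with 3 or more UMIs of the other 39 members gave a partly different order, with a Spearman rho of 0.46 to the mitosis-side ratio across the 39 members at 3 CPM or more. It was 99.7% for the kinesin Kif2c and 99.2% for Hmmr, against 64.3% for Bub1b, 52.2% for Smc2 and 31.9% for Smc4. Cenpa was high on the mitosis side (5.19) but had a share of 68.6%, while Spc24 was low there and had 93.8%. Smc4 had a UMI in 31.0 to 35.3% of AM cells, against 3.22 to 4.66% for Cdk1. Across the 39 members at 3 CPM or more, the early fold had a Spearman rho of -0.63 with this share and -0.39 with the mitosis-side ratio. In that order, the late fold of MMTV-HER2 over wildtype had 0.16 and 0.12, the fold of wildtype late over early -0.31 and 0.12, and the fold of MMTV-HER2 late over early 0.45 and 0.66. These are descriptions over genes that share the same libraries and depth.

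**Figure D4:**
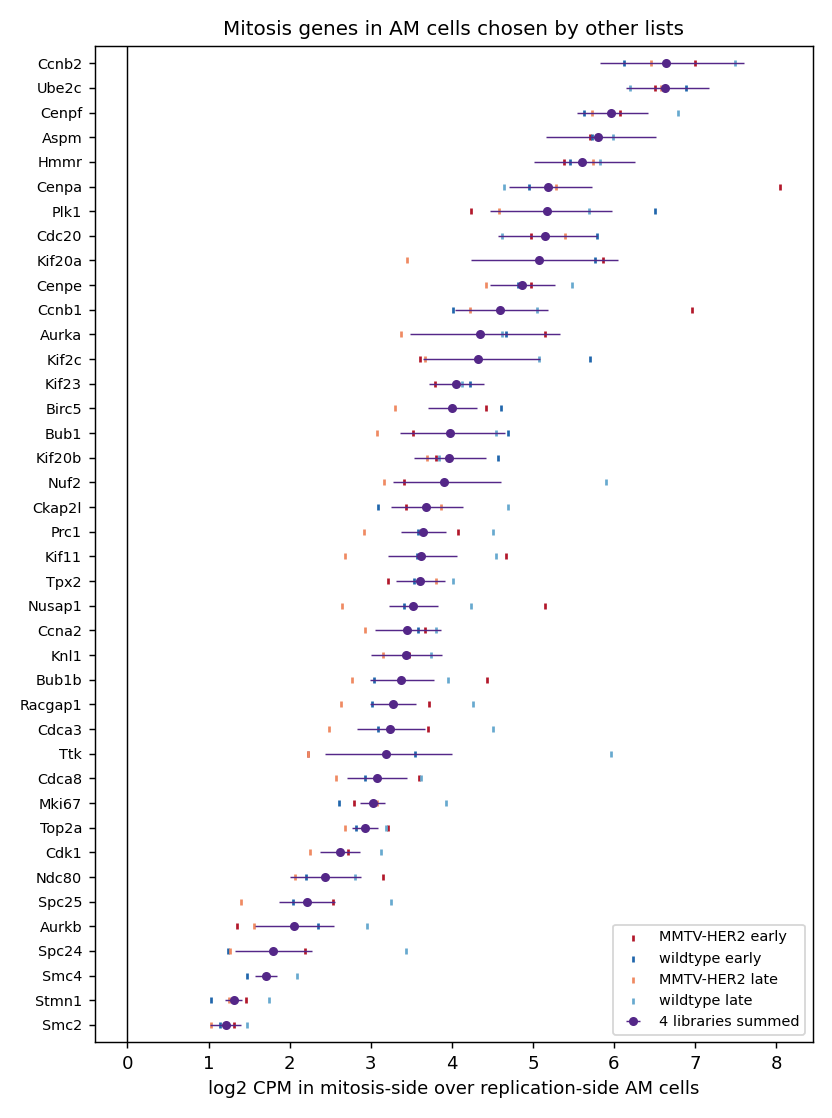
log2 ratio of CPM in mitosis-side over replication-side AM cells for each mitosis gene, for the 4 libraries summed (circles, with exact 95% intervals) and for each library (ticks; none where a library had 0 UMIs on a side). All circles lie above 1, with Ccnb2 and Ube2c highest and Smc2 and Stmn1 lowest.

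In IM cells the list summed to 575 CPM (544 to 606) in MMTV-HER2 early and 1574 CPM (1525 to 1624) in wildtype early, and to 674 CPM (648 to 700) in MMTV-HER2 late and 562 CPM (531 to 593) in wildtype late. The early log2 fold was -1.45 (-1.54 to -1.36). Among members at 10 CPM or more, 25 of 25 were at least 20% lower early, against a background of 26.5%, and 0 were higher, against 12.8%. The level is a mean over 4 libraries that the high values of wildtype early raise, so this count is a description. In the same cells of wildtype early, 134 of 330 held 3 or more T-lineage UMIs, and they held 2713 of the 3903 member UMIs; the other libraries had 16 to 31 such cells. All 5 thymocyte markers (Rag1, Rag2, Ptcra, Dntt, Cd8b1) were found there, at 477 CPM in sum, against 2.85 to 23.4 CPM in the IM cells of the other libraries.

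Without those cells the IM sum was 535 CPM in MMTV-HER2 early and 878 CPM in wildtype early (log2 -0.72), with 21 members lower and 1 higher, against 18.5% of all genes lower and 20.6% higher in these cells, and the log2 fold was -0.58 without any IM cell with a T-lineage UMI. The 25 members counted were still those chosen by their level over all IM cells, T-lineage ones included, so this count too is a description. Stmn1 then had 108 CPM in MMTV-HER2 early and 173 CPM in wildtype early (log2 -0.67, -0.94 to -0.41), Top2a 30.8 and 67.1 CPM (-1.12, -1.60 to -0.65), and Mki67 30.8 and 62.7 CPM (-1.03, -1.51 to -0.55). Cenpf and Kif23 were at 0.20 and 0.34, with intervals that spanned 0. Whether T-lineage RNA in cells below this limit of 3 UMIs has a part in the difference was not tested. At 32 weeks the IM sum was at log2 0.26 (0.17 to 0.36), and at 0.25 without such cells. Of 25 members 11 were at least 25% higher, against a background of 10.7%, and 1 lower, against 28.7%, and without such cells 9 were higher and 4 lower, against 11.1% and 27.8% of all genes. B cell markers (Cd79a, Cd79b, Ms4a1, Ighm) also differed, at 272 CPM in IM cells of MMTV-HER2 late and 1041 CPM in those of wildtype late, with 229 CPM in MMTV-HER2 early and 216 CPM in wildtype early. IM cells of 3 or more B cell UMIs numbered 147 in MMTV-HER2 late and 78 in wildtype late. They held 1240 of the 2604 member UMIs of IM cells in MMTV-HER2 late and 584 of 1271 in wildtype late. Without these cells the list summed to 487 CPM in MMTV-HER2 late and 362 CPM in wildtype late (log2 0.43, 0.30 to 0.56). Of the 25 members 16 were then higher and 2 lower, against 11.96% and 30.7% of all genes. Over all IM cells, B-marked and T-marked ones included, Birc5 had 21.2 CPM in MMTV-HER2 late and 10.6 CPM in wildtype late (log2 1.00, 0.33 to 1.72), and Stmn1 130 CPM and 79.5 CPM (0.71, 0.46 to 0.96).

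In thinned IM cells 5.08% (3.21 to 7.59) held 3 or more member UMIs in MMTV-HER2 early and 14.6% (10.9 to 18.9) in wildtype early, and 5.71% (4.03 to 7.82) in MMTV-HER2 late and 3.76% (2.31 to 5.75) in wildtype late. Without cells of 3 or more T-lineage UMIs the early shares were 4.62% (2.81 to 7.13) in MMTV-HER2 early and 7.89% (4.49 to 12.7) in wildtype early, with intervals that overlapped.

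Other cells had the widest spread, with 483 CPM in MMTV-HER2 early, 2658 CPM in wildtype early, 1285 CPM in MMTV-HER2 late and 680 CPM in wildtype late. Those with 3 or more T-lineage UMIs held 4257 CPM in wildtype early, the highest list level of any group of cells formed by class and T-lineage UMIs, against 736 to 1807 CPM in the other 3 libraries. Without them the sums were 413 CPM in MMTV-HER2 early, 1190 CPM in wildtype early, 1166 CPM in MMTV-HER2 late and 565 CPM in wildtype late. Epithelial markers (Sftpc, Sftpb, Scgb1a1, Epcam) differed between these libraries too, at 28463 CPM in other cells of MMTV-HER2 early, 964 CPM in wildtype early, 427 CPM in MMTV-HER2 late and 11021 CPM in wildtype late. The 2 libraries with the lowest list sums were those with the highest epithelial markers, and the part of epithelial cells in the sums was not tested. Which cells were present can also depend on the sort gate, whose part was not tested. Free RNA, from barcodes with 10 to 100 UMIs, held the list at 573 CPM in MMTV-HER2 early, 813 CPM in wildtype early, 642 CPM in MMTV-HER2 late and 543 CPM in wildtype late, close to the level in AM cells. With free RNA subtracted, in an amount set from the C1q genes at 2.97 to 13.9% of AM UMIs, the early AM fold was again log2 -0.46.

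**Figure D5:**
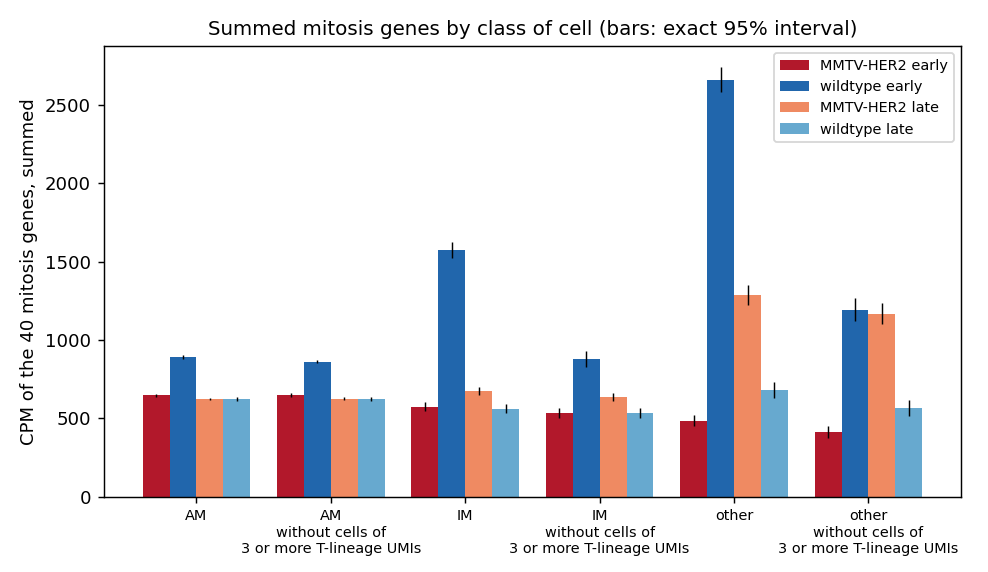
Summed CPM of the 40 mitosis genes by class of cell and library, each class shown with all its cells and without those of 3 or more T-lineage UMIs, with exact 95% counting intervals and an axis that starts at 0. The bar of wildtype early stands at 1574 CPM over all IM cells and 878 CPM without such cells, at 2658 and 1190 CPM in other cells, and at 892 and 862 CPM in AM cells.

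The authors' deposited table of average signal over AM cells, whose columns each sum to 10000, gave early values below 0 for 40 of 40 members and late ones for 27. By the authors' deposited table, 22 of the 39 members at 3 CPM or more were at least 20% lower early and 0 higher, with a median log2 of -0.34. Of the 9440 genes at that level in the same table, 3.63% were lower early and 2.81% higher. Late, 10 of the 39 were lower and 3 higher in the authors' deposited table, with a median of -0.15, against 26.2% of all genes lower and 4.35% higher and a median of -0.19. The sign was the same as in the rebuilt classes for 40 members early and 35 late.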

How the data were processed

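The authors deposited UMI counts per gene for every barcode of the 10x list of 4 libraries, aligned with Cell Ranger 5.0.1 to mm10 per the submitters' processing notes, although the deposited counts carry the name of Cell Ranger 4, per the file headers. They also deposited average signal per gene over AM cells, with their making not given in the sources used here. Counts were not normalized by the authors.

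Kept barcodes had 1000 UMIs or more, 500 genes or more and a mitochondrial share of 10% or less, and totals per library were 28786682 to 39228655 UMIs. AM cells had the 6 AM markers at 0.4% of UMIs or more and above the C1q sum, IM cells had 5 or more C1q UMIs and more than AM UMIs, and the rest were other cells. Doublets were not removed. UMIs were summed per library and class and scaled to CPM. A 3′ assay gives no count per length, so CPM is compared between genes without a length term. CPM ratios have conditional binomial (exact) intervals, levels have exact Poisson and shares exact Clopper-Pearson intervals, all at 95%. Counting intervals of CPM and of folds treat each UMI as 1 molecule drawn independently, and do not cover the clustering of UMIs in cells. With 1 library per group no p-value or standard error was made, and a gene was counted from 25% higher or 20% lower, among genes at 3 CPM (AM) or 10 CPM (IM) or more in the mean of 4 libraries. Thinning drew UMIs without replacement, 1 draw per library. Folds and intervals were tested on simulated Poisson counts with known answers, drawn without clustering of UMIs in cells.

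Named genes were, in each of 8 roles, the member with the highest AM CPM, and for each comparison the 3 highest and 3 lowest folds by the interval bound nearest to 0. For the partner and regulator lists, 2 and 2 were eligible. A gene that this rule names is not reported here. Members named beyond that were chosen after their values were seen. The members and lists were chosen with earlier results of these data known. Gene positions and lengths are from GENCODE M21 (GRCm38), and 3′ copies were sought with BLAST 2.17.0 (last 300 bases, 95% identity over 90 bases). Python 3.11.15, NumPy 2.4.6, SciPy 1.17.1 and pandas 2.3.3 were used. Alternatives varied the cell limits, the scaling, the weighting, the level filter and the thinning.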

Additional observations from a re-analysis of the deposited data

Results flagged for a closer look

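For 4 members the genotype difference in AM cells lay on opposite sides of 0 at the 2 ages, with counting intervals away from 0 at both. The early log2 fold minus the late one was -0.67 for Cdk1, -1.49 for Ube2c, -1.04 for Cdca8 and -0.71 for Stmn1. The difference was not tested, since each group is 1 library. In each of these genes wildtype early had the highest level and wildtype late the lowest of the 4 libraries, while MMTV-HER2 early and late lay between them. Relative to the median of all genes at the late age (log2 -0.20) the late values of these genes lie further above 0. That median was -0.01 for transcripts under 2000 bases, which include Stmn1 (1060 bases) and Cdca8 (1626 bases). It was -0.29 for those of 4000 bases or more, which include Cdk1 (4375 bases). The part of transcript length was not tested.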

How the results depend on the processing

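No paired analysis was possible because each group is 1 library. Of 164 alternative values 98 stayed within the counting interval or, for counts of members, within 1.5 times the count. Higher and lower members were counted together there, so a count could stay while its direction turned. In IM cells, late over early in MMTV-HER2 had 8 members higher and 2 lower. Without IM cells of 3 or more B cell UMIs it had 2 higher and 11 lower. No summed fold at least 25% higher or 20% lower changed sign. The alternatives on T-lineage and B cell UMIs were chosen after seeing the data. The cause of each change was not tested. The early summed AM fold (log2 -0.46) was -0.38 with AM markers at 1% or more of UMIs, -0.33 with every cell weighing the same, -0.53 without cells over 25% Gm42418, -0.39 without cells over 15000 UMIs, -0.33 in the authors' deposited averages, -0.41 without AM cells of 3 or more T-lineage UMIs and -0.35 without any T-lineage UMI. The late one (0.00) was -0.066 with AM markers at 1% or more, -0.092 with equal cell weights, 0.038 without cells over 15000 UMIs, -0.070 in the authors' averages, 0.090 with CPM taken without Gm42418, mitochondrial and ribosomal protein genes, and 0.20 relative to the median of all genes. Late over early in wildtype (-0.52) was -0.15 with AM markers at 1% or more, -0.31 with equal cell weights, -0.47 and -0.41 under the T-lineage limits, -0.58 without the abundant genes and -0.68 relative to the median of all genes. In MMTV-HER2 (-0.05) it was 0.16 with AM markers at 1% or more and -0.0099 without cells over 25% Gm42418.

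Counts of members past that step among the 18 at 10 CPM or more were 13 early, 3 late, 11 in late over early wildtype and 3 in late over early MMTV-HER2. Over the 39 at 3 CPM or more they were 11 late and 14 in late over early wildtype with equal cell weights, and 13 late in the authors' averages. In IM cells the early fold was -0.72 and the late over early fold in wildtype -0.72 without cells of 3 or more T-lineage UMIs, and -0.58 and -0.59 without any T-lineage UMI, and the share in wildtype early was 7.89%. Without IM cells of 3 or more B cell UMIs the fold was 0.43 late, -2.13 in late over early wildtype and -0.21 in late over early MMTV-HER2, against 0.23 with all IM cells. In other cells without those of 3 or more T-lineage UMIs the folds were -1.53 early, 1.05 late and -1.08 in late over early wildtype. AM shares in MMTV-HER2 early, wildtype early, MMTV-HER2 late and wildtype late were 11.96, 17.6, 13.5 and 15.5% unthinned, 4.17, 5.47, 4.03 and 3.99% at 1500 UMIs, 8.92, 10.9, 8.20 and 7.58% at 3000 UMIs, 10.8, 13.4, 9.98 and 10.9% for 2 or more UMIs, 3.49, 4.47, 3.28 and 3.19% for 5 or more, and 3.49, 4.31, 3.60 and 3.41% without Stmn1, Smc2, Smc4 and Racgap1. With AM markers at 1% or more the first 3 were 4.10, 5.35 and 4.28%. The mean share over all possible draws of thinning was 5.30, 6.73, 5.01 and 5.09%. Wildtype early was highest under each of these settings. Depth limits the members under 10 CPM, whose intervals often span this step.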

Other observations

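Among other cells with 3 or more T-lineage UMIs, 315 over the 4 libraries, Stmn1 gave 21.6% of the member UMIs, Top2a 9.73%, Smc4 9.27% and Mki67 8.17%. Among the 266 endothelial cells Stmn1 gave 67.6%, Smc4 6.85% and Smc2 3.88%. Among the 133 B cells, chosen by Cd79a, Cd79b, Ms4a1 and Ighm, Stmn1 gave 26.3% and Smc4 12.4%. Smc4, Stmn1 and Smc2 were also the members whose AM UMIs lay least on the mitosis side, next to Spc24 and Aurkb.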
